A study of Mus musculus with 44 samples.

Results

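The collagen genes of the mouse were followed in liver RNA from animals of 3 genotypes kept on 3 diets. Members were all genes in the count table whose symbol has the form Col, a number, a and a number, such as Col1a1, and this gave 44 of 35249 genes. A member was taken as expressed with at least 10 counts in at least 3 of the 44 libraries, which 33 collagen genes met, beside 15516 of all genes. The 11 that fell under this minimum were Col2a1, Col9a1, Col9a2, Col10a1 and Col11a1, known from cartilage, and Col6a4, Col17a1, Col19a1, Col22a1, Col26a1 and Col28a1. Of the 33 expressed members, 29 also passed the count filter of the test, and Col6a5, Col8a2, Col23a1 and Col24a1 did not. The 29 tested members comprise 8 fibrillar collagens, 6 chains of the type IV network of basement membranes, 4 chains of the beaded filaments of type VI, the anchoring fibril chain Col7a1, the short-chain collagen Col8a1, 5 FACITs, 2 transmembrane collagens and the 2 multiplexins. Mouse collagens are named by a type and a chain, so that Col4a2 encodes the alpha-2 chain of type IV.

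Collagen chains wind into a triple helix inside the endoplasmic reticulum, are hydroxylated and folded there, and are trimmed and cross-linked after secretion. Fibrillar collagens (types I, III, V and others) assemble into fibrils, type IV forms the sheet-like network of basement membranes, FACITs (fibril-associated collagens with interrupted triple helices) lie on fibril surfaces, and multiplexins sit next to basement membranes. In a healthy liver little fibrillar collagen is made outside the portal tracts and vessel walls. In chronic liver injury stellate cells and portal fibroblasts turn into myofibroblasts that deposit types I and III as scar, while hepatocytes are a known source of Col18a1, whose C-terminal piece is endostatin.

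Bulk RNA sequencing was done on about 25 mg of liver per library. The genotypes were wild type (WT), a Ripk3 knockout (Ripk3KO) and an Mlkl knockout (MlklKO). Ripk3 and Mlkl encode the kinase and the membrane-disrupting effector of necroptosis, a lytic form of programmed cell death. From 2 months of age mice received for 6 months either normal chow, called control, or a choline-deficient diet low in fat (CD-LFD) or high in fat (CD-HFD), and there were 6, 6 and 6 WT, 6, 3 and 4 Ripk3KO and 6, 4 and 3 MlklKO libraries on the 3 diets in that order. The labels give neither sex, strain, litter nor batch, and the knockouts are not described as limited to a cell type, so p-values measure only the spread between these libraries.

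Total counts ran from 2476268 to 12471844 in all libraries but WT CD-LFD replicate 3, which held 88204703. Levels are given as CPM (the share of a library's counts scaled to one common total, with TMM library factors), as the lowest, median and highest library for groups of 6 and as every library for smaller groups. Ripk3 was at 0.439 to 4.78 CPM of total counts (median 1.08) in WT controls and at 0 to 1.01 (median 0.126) in Ripk3KO controls, where replicate 5 was the highest with 9 counts. Mlkl was at 17.2 to 22.6 CPM (median 20.4) on CD-HFD in WT and at 3.55, 6.02 and 14.4 in MlklKO, where replicate 1 was the highest. On control diet the Mlkl levels overlapped, at 2.02 to 5.50 CPM (median 4.80) in WT and 1.24 to 2.61 CPM (median 1.79) in MlklKO. Without the doubtful libraries, Ripk3KO control replicate 5 and MlklKO CD-HFD replicate 1, the number of called members stayed within 1.5 times in 8 of the 9 comparisons that use them, and became 1 in place of 0 in the other, the CD-HFD interaction of MlklKO. The clock genes Arntl and Dbp split the libraries into 33 and 11 at a gap of 1.01 in their log2 ratio, the widest gap that leaves at least 5 libraries on each side, called clock phase 1 and clock phase 2 here. The next widest such gap was 0.762. Phase 2 held WT control replicates 1, 3, 5 and 6, all 6 WT CD-LFD libraries and WT CD-HFD replicate 3. All knockout libraries were in phase 1. On CD-LFD genotype and clock phase therefore cannot be told apart. Within phase 1 the log2 ratio was -4.96 to -3.67 in MlklKO controls and -7.40 to -5.19 in the other knockout libraries. The 2 WT controls of phase 1 were at -7.88 and -5.79, so phase 1 did not match MlklKO and WT controls on this ratio. In bulk liver, fewer cells of a type and less RNA per cell cannot be told apart.

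In WT control livers the collagen RNA pool was dominated by the multiplexin Col18a1. Collagen counts made up 0.125% to 0.215% (median 0.151%) of a library, and Col18a1 alone took 43.7% to 77.1% (median 68.9%) of them. Per kilobase of exon in the GENCODE M21 annotation, the only scale on which genes can be ranked against each other, mean levels (± SD, n = 6) were 164 ± 50.2 CPM per kb for Col18a1, 30.1 ± 26.9 for Col5a3 and 15.0 ± 10.4 for Col27a1. Col14a1 at 5.85 ± 2.51 and Col4a1 at 4.09 ± 1.43 followed, whereas Col1a1 at 1.18 ± 0.548 was 11th and Col1a2 at 1.08 ± 0.393 was 14th. Only Col18a1 stood clear: the ranges of every other pair of neighbours in this order overlapped over the 6 libraries, those of Col5a3 and Col27a1 included. On CD-HFD the order of WT livers was Col18a1 at 92.3 ± 8.48, Col1a1 at 31.4 ± 11.9, Col3a1 at 28.6 ± 9.53, Col4a1 at 16.1 ± 5.17 and Col1a2 at 15.1 ± 3.86 CPM per kb, with Col5a3 now 9th and Col27a1 12th.

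The make-up of the pool shifted the same way on the diets in each genotype. The share of collagen counts from Col1a1, Col1a2 and Col3a1 together had a median of 2.74% in WT controls, 11.8% on CD-LFD and 33.3% on CD-HFD. In Ripk3KO the medians were 1.83%, 11.8% and 29.4%, and in MlklKO they were 3.10%, 11.3% and 35.7%. The Col18a1 share went from medians of 68.9%, 76.9% and 73.8% on control diet to 34.9%, 41.5% and 30.3% on CD-HFD in WT, Ripk3KO and MlklKO. Collagen as a percentage of all counts went from medians of 0.151%, 0.126% and 0.120% to 0.256%, 0.240% and 0.294%. These shares are descriptions and were not tested.

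**Figure D1:**
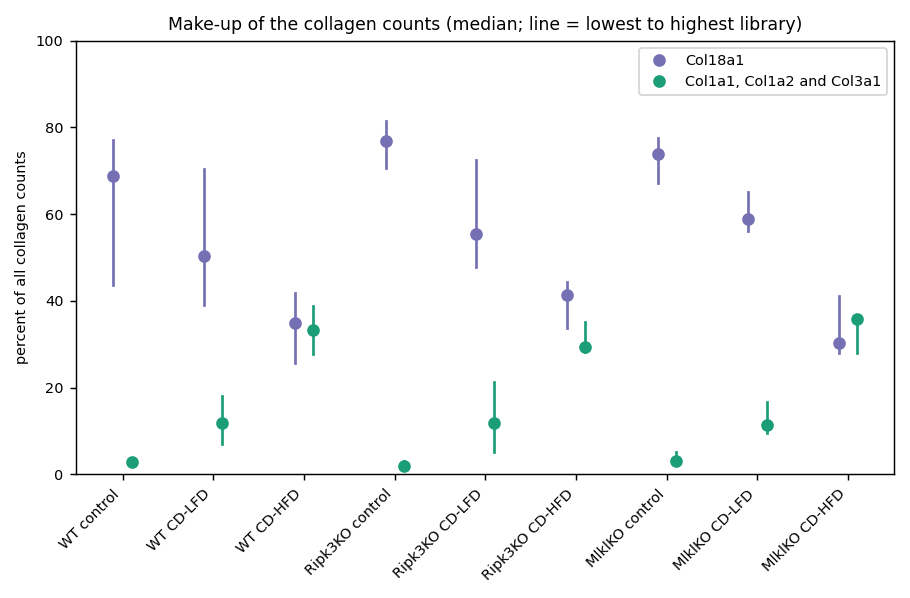
Share of collagen counts (percent, y axis) from Col18a1 and from Col1a1, Col1a2 and Col3a1 together in the 9 groups (x axis), with points at group medians and bars from the lowest to the highest library. In WT the Col18a1 median went from 68.9% on control diet to 34.9% on CD-HFD and the median of the 3 fibrillar genes from 2.74% to 33.3%.

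Promoter sequence is shown for 5 members that stand for the contrasting responses described below: Col1a2, Col3a1 and Col8a1, higher on CD-HFD, and Col5a3 and Col18a1, lower in WT. The letters come from RefSeq, build GRCm38.p6, and run 5′ to 3′ on the gene's strand over the 250 bases before the annotated start, with Col5a3 shown for 200 because 50 bases inside the gene span were left out. Capitals mark matches on either strand to 5 motifs, with no match overlapping another here. They are CCAAT, the box bound by NF-Y, and TATAAA, the core element near many start sites. The others are GGGCGG, known as the Sp1 box, CAGACA, a binding element of SMAD proteins, and TGANTCA, the element bound by AP-1.
Col1a2, chr6:4505368-4505617, plus strand: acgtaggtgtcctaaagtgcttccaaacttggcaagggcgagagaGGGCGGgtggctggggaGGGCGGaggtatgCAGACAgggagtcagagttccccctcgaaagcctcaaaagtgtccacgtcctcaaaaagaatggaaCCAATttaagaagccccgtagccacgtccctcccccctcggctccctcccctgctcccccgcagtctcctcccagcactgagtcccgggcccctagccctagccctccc
Col3a1, chr1:45311288-45311537, plus strand: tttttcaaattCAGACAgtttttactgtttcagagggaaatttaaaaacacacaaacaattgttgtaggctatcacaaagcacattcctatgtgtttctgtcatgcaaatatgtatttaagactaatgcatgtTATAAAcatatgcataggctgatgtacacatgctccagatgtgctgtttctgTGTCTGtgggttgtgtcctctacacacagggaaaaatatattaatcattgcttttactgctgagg
Col8a1, chr16:57754738-57754987, minus strand: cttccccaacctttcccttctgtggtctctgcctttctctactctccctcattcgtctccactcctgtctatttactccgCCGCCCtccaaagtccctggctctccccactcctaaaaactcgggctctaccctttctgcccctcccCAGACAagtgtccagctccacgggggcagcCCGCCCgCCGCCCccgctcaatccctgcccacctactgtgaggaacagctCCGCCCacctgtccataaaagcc
Col5a3, chr9:20815118-20815317, minus strand: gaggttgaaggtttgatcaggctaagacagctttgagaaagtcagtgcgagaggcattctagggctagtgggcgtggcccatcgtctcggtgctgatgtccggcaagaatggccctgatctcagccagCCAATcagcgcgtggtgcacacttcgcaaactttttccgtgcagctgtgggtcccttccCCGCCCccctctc
Col18a1, chr10:77166531-77166780, minus strand: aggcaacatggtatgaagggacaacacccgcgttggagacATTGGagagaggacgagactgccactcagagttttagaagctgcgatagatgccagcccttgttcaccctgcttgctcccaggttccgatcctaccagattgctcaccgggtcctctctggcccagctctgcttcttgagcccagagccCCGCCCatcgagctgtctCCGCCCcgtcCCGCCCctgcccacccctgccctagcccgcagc

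Col1a2 held a CCAAT box, 2 Sp1 boxes and a SMAD element, Col3a1 a TATAAA match and 2 SMAD elements, and Col8a1 4 Sp1 boxes and a SMAD element. In its 200 printed bases Col5a3 held a CCAAT box and an Sp1 box, with another Sp1 box in the 50 bases left out. The first start of Col18a1 held a CCAAT box and 3 Sp1 boxes. A second Col18a1 start inside the gene, whose sequence is not printed, held a SMAD element in its window. Among the 38 collagen start windows in the table, GGGCGG was in 22 (57.9%), CCAAT in 13 (34.2%), CAGACA in 9 (23.7%), TATAAA in 5 (13.2%) and TGANTCA in 1 (2.63%). Over all 32851 windows of that length the shares were 32.7%, 33.8%, 17.1%, 12.4% and 6.75% in the same order. These matches are a description of letters and were not tested. The tested members Col1a1, Col4a3, Col5a2, Col9a3, Col12a1 and Col14a1 had no window in the table.

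On CD-HFD, 20 of the 29 tested collagen genes were higher and 6 lower in WT livers than on control diet, by edgeR's quasi-likelihood test with Benjamini-Hochberg adjustment over 14862 genes at an adjusted p of 0.05. Over all genes 23.5% were higher and 24.1% lower. The median log2 change was 1.57 for the members and -0.07 for all genes. The groups did not overlap for 14 of the members that were higher and 3 that were lower, against 14.3% and 6.63% of all genes. The risers spanned the fibrillar, basement membrane, beaded filament, short-chain, FACIT and multiplexin classes, and the 6 that fell were Col5a3, Col27a1, Col18a1, Col13a1, Col25a1 and Col20a1. With scaling by library size only, which moves the median log2 change of all genes to 0.43, the split was 20 higher and 2 lower, against 45.8% and 6.86% of all genes. Leaving out any 1 of the 12 libraries left 25 or 26 members called, while within clock phase 1, with 2 controls and 5 CD-HFD libraries, it was 17 higher and 2 lower, against 24.1% and 20.9% of all genes.

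The chains of types I and III, the main fibril formers, were among the members that rose most. Col1a1, the alpha-1 chain of type I, was at 2.74 to 13.6 CPM (median 7.52) in WT controls, 31.7 to 79.4 CPM (median 51.1) on CD-LFD and 102 to 296 CPM (median 207) on CD-HFD. All 3 diets were separate from each other, and the rise on CD-HFD was 25.5-fold (log2 change 4.67, SE 0.36, adjusted p 6.46e-14). Col1a2, its partner chain, was at 7.30 to 19.4 CPM (median 12.7), 33.9 to 98.8 CPM (median 53.5) and 132 to 244 CPM (median 181) on the same diets. Every CD-HFD library was again above every CD-LFD library and these above every control, with a rise of 13.8-fold on CD-HFD (log2 change 3.79, SE 0.30, adjusted p 1.46e-13). Col3a1, the only chain of type III, was at 22.2 to 39.8 CPM (median 27.3), 52.1 to 124 CPM (median 84.8) and 172 to 423 CPM (median 282). It too stepped up without overlap, by 9.68-fold on CD-HFD (log2 change 3.28, SE 0.30, adjusted p 5.07e-12).

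The 3 type V chains, which set fibril diameter, went different ways. Col5a2 was at 0.307 to 4.11 CPM (median 2.84) in WT controls, 5.12 to 10.1 CPM (median 6.55) on CD-LFD and 14.4 to 37.3 CPM (median 19.3) on CD-HFD, with no overlap between diets (log2 change 3.04, SE 0.32, adjusted p 2.01e-10 for CD-HFD against control). Col5a1 was at 8.22 to 21.0 CPM (median 11.0), 11.1 to 19.2 CPM (median 18.1) and 16.4 to 38.3 CPM (median 22.8). It rose less and overlapped with control replicate 6, its highest control (log2 change 0.96, SE 0.24, adjusted p 0.000802). Col5a3 was at 73.3 to 541 CPM (median 111), 145 to 347 CPM (median 253) and 46.4 to 97.6 CPM (median 53.2), with control replicates 6 and 5 above the other 4 controls. It fell on CD-HFD (log2 change -1.74, SE 0.40, adjusted p 0.000386), but not without control replicates 5 and 6 (-0.69, adjusted p 0.0964), with clock phase as a term (-0.99, adjusted p 0.0923) or within phase 1 (-0.47, adjusted p 0.45). Col27a1, a fibrillar collagen known from cartilage, was at 90.4 to 453 CPM (median 161), 45.2 to 119.7 CPM (median 89.6) and 36.7 to 62.3 CPM (median 42.1), and control replicate 6 was again the highest. Even its lowest control lay above every CD-HFD library (log2 change -2.10, SE 0.35, adjusted p 3.41e-06). Col11a2 did not pass the test (log2 change -0.01, SE 0.45, adjusted p 0.993), at 0.851 to 8.22 CPM (median 3.37) in controls and 1.19 to 6.71 CPM (median 2.76) on CD-HFD.

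**Figure D2:**
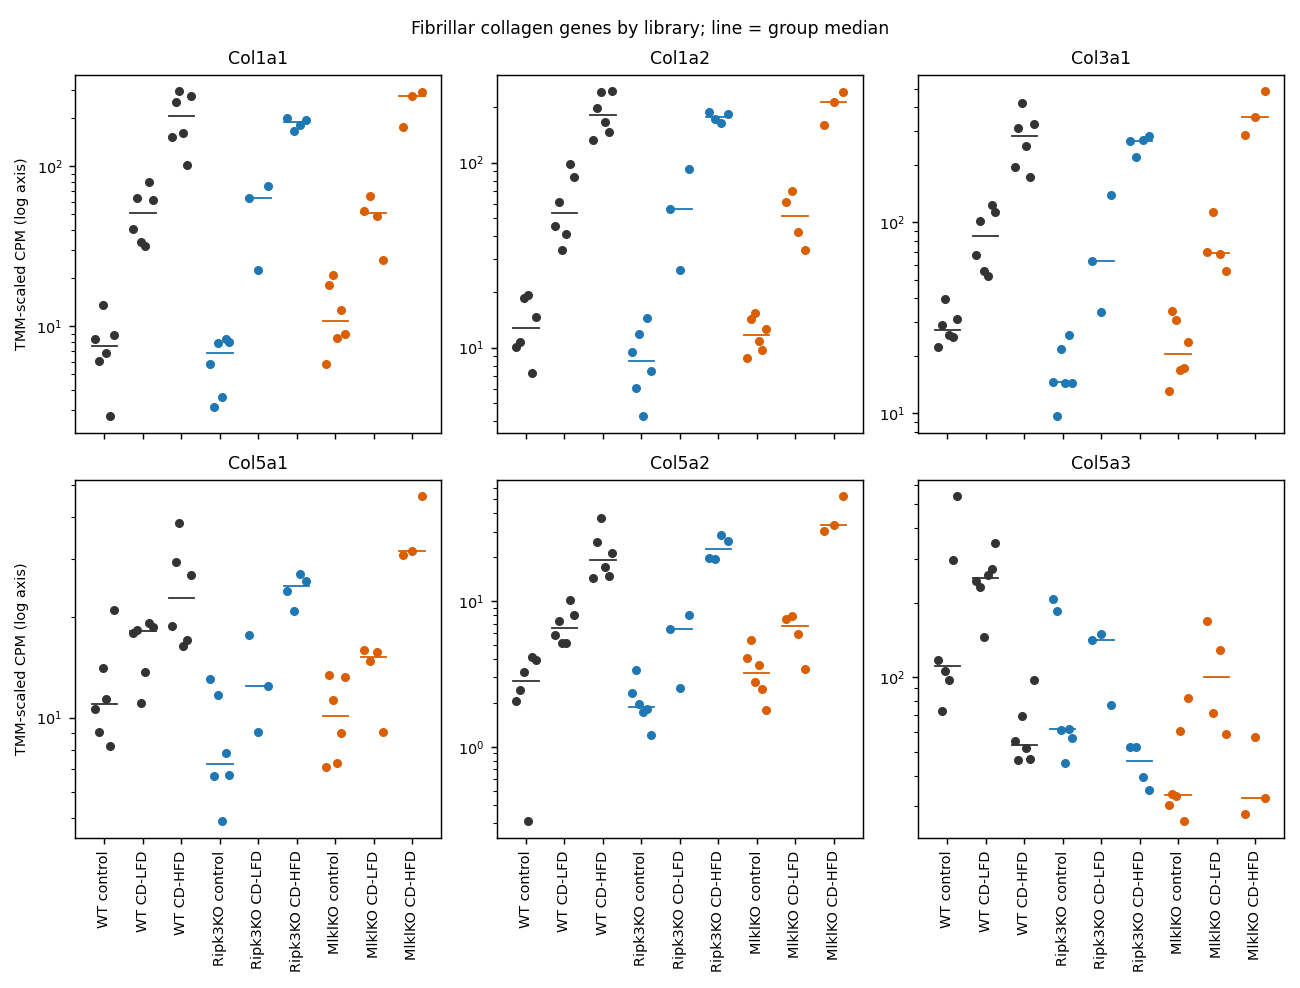
Levels (CPM, log axis) of Col1a1, Col1a2, Col3a1, Col5a1, Col5a2 and Col5a3 in each library of the 9 groups, where a point is a library and a line the group median. Col1a1 medians in WT were 7.52, 51.1 and 207 CPM on control, CD-LFD and CD-HFD, and Col5a3 medians 111, 253 and 53.2 CPM.

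All 6 chains of type IV were higher on CD-HFD in WT. Col4a1, which with Col4a2 forms the common basement membrane trimer, was at 19.6 to 49.2 CPM (median 27.6) in controls, 39.2 to 55.9 CPM (median 47.8) on CD-LFD and 81.0 to 176 CPM (median 114) on CD-HFD (log2 change 1.96, SE 0.26, adjusted p 4.26e-08). Col4a2 was at 13.7 to 35.9 CPM (median 18.2), 23.3 to 31.0 CPM (median 26.9) and 41.2 to 107 CPM (median 67.1) (log2 change 1.71, SE 0.24, adjusted p 1.1e-07). For both, the CD-HFD libraries stood above all control and CD-LFD libraries, and control overlapped with CD-LFD. These genes lie head to head on chromosome 8 with starts 21 bases apart and 22 shared exon bases on opposite strands; the strand setting of the counting is not given in the sources used here. The minor chains were low but rose too, with log2 changes of 1.57 for Col4a3 and 2.16 for Col4a4, known from kidney glomeruli, and 3.06 for Col4a5. Col4a6, known from epithelial basement membranes, was at 0 to 0.913 CPM (median 0.122) in controls, 0.501 to 2.47 CPM (median 0.704) on CD-LFD and 2.17 to 7.42 CPM (median 3.77) on CD-HFD. CD-HFD was separate from control (log2 change 3.86, SE 0.63, adjusted p 2.55e-06), and replicate 3 was its highest library. Col4a3 shares 563 exon bases with C430014B12Rik on the opposite strand, so that its reads may be split or joined with that gene's.

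Of the type VI chains, which form beaded filaments linking cells to fibrils, Col6a3 rose most. It was at 9.53 to 19.6 CPM (median 11.6) in WT controls, 25.8 to 107 CPM (median 53.2) on CD-LFD and 62.6 to 199.9 CPM (median 134) on CD-HFD (log2 change 3.30, SE 0.34, adjusted p 1.63e-10). Controls were below both diets, and the diets overlapped each other. Col6a2 was at 2.77 to 8.17 CPM (median 5.50), 7.68 to 15.7 CPM (median 8.50) and 11.0 to 50.2 CPM (median 24.2) (log2 change 2.24, SE 0.35, adjusted p 1.34e-06), with no overlap between control and CD-HFD. Col6a1 was at 5.53 to 19.6 CPM (median 8.26), 12.0 to 27.1 CPM (median 16.3) and 15.4 to 57.2 CPM (median 28.3) (log2 change 1.66, SE 0.30, adjusted p 1.52e-05), and its highest control, replicate 6, lay inside the CD-HFD range. Col6a6 was at 0.733 to 3.20 CPM (median 1.19) in controls and 0.677 to 1.75 CPM (median 1.0) on CD-HFD and did not pass the test on CD-HFD (log2 change -0.25, SE 0.53, adjusted p 0.727). Col8a1, a short-chain collagen of vessel walls, was at 0 to 1.22 CPM (median 0.191), 0 to 3.59 CPM (median 1.03) and 2.74 to 7.09 CPM (median 3.77). All CD-HFD libraries were above all controls (log2 change 3.45, SE 0.59, adjusted p 6e-06).

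Among the FACITs, which coat fibrils, Col16a1 went from 2.93 to 7.09 CPM (median 6.17) in WT controls through 5.71 to 14.0 CPM (median 9.20) on CD-LFD to 11.0 to 21.3 CPM (median 14.9) on CD-HFD (log2 change 1.44, SE 0.21, adjusted p 2.67e-07). Control and CD-HFD did not overlap, and CD-LFD lay between them, overlapping both. Col12a1, found on type I fibrils under tension, was at 1.36 to 3.91 CPM (median 2.18), 4.73 to 7.39 CPM (median 6.45) and 3.68 to 8.40 CPM (median 4.79) (log2 change 1.11, SE 0.34, adjusted p 0.00603). Its CD-LFD and CD-HFD ranges overlapped widely, and the call was lost within clock phase 1 (1.29, adjusted p 0.0676). Col14a1, the other large fibril-surface FACIT, was at 18.3 to 59.8 CPM (median 46.9), 28.2 to 39.8 CPM (median 35.3) and 45.8 to 101 CPM (median 62.0). Its rise was small (log2 change 0.68, SE 0.26, adjusted p 0.0295), control and CD-HFD overlapped, and it was not called without control replicates 5 and 6 (0.35, adjusted p 0.244). Leaving out control replicate 5 or 6, or CD-HFD replicate 2 or 3, alone also ended this call, with adjusted p up to 0.105 over the leave-one-out fits. Col9a3 rose as well (2.03 on the log2 scale, adjusted p 0.000227) from 0 to 0.733 CPM (median 0.584) to 1.49 to 2.68 CPM (median 2.09), although its 2 partner chains of type IX were not expressed by the count rule. Col20a1 fell (log2 change -1.42, SE 0.42, adjusted p 0.00465). Its levels went from 1.22 to 7.33 CPM (median 2.68) through 0.873 to 2.53 CPM (median 1.37) on CD-LFD to 0.242 to 2.03 CPM (median 1.35). Col20a1 was not called without control replicates 5 and 6 (-0.75, adjusted p 0.146) or with clock phase as a term (-1.20, adjusted p 0.0753). Nor was it called within phase 1 (-0.42, adjusted p 0.612) or with library size only (-0.94, adjusted p 0.0675). It shares 79 exon bases with BX649560.1 on the same strand, a gene with 931 counts in all against 651 for Col20a1, so its reads are uncertain.

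The multiplexins parted. Col15a1, of the outer face of basement membranes, was at 3.65 to 17.5 CPM (median 7.77) in WT controls, 7.06 to 19.3 CPM (median 10.6) on CD-LFD and 12.8 to 45.8 CPM (median 21.2) on CD-HFD (log2 change 1.34, SE 0.31, adjusted p 0.000481). Its control and CD-HFD values overlapped through control replicates 3 and 6. Col18a1 was at 746 to 1696 CPM (median 1041), 655 to 1239.9 CPM (median 821) and 562 to 736 CPM (median 649). The highest CD-HFD library lay under the lowest control, and the fall was 1.78-fold (log2 change -0.83, SE 0.18, adjusted p 0.000202). With library size only it was -0.33, adjusted p 0.0881. Col18a1 fell beside the hepatocyte marker list, of which 8 of 8 genes were lower against 24.1% of all genes, with summed levels of 91769 to 156527 CPM (median 128355) in controls and 57479 to 93009.8 CPM (median 64194) on CD-HFD; whether the falls are linked was not tested. Of the transmembrane collagens, Col25a1 was at 1.66 to 2.28 CPM (median 2.10), 0 to 1.20 CPM (median 1.05) and 0.206 to 1.08 CPM (median 0.704). Every CD-HFD library was below every control (log2 change -1.57, SE 0.48, adjusted p 0.00679), and within clock phase 1 the call was lost (-1.50, adjusted p 0.0813). Col13a1 fell from 3.67 to 6.90 CPM (median 5.13) to 1.46 to 3.79 CPM (median 2.08) (log2 change -1.17, SE 0.31, adjusted p 0.00192), with an overlap of the ranges. Col7a1, the anchoring fibril chain of skin, did not pass the test (log2 change -0.44, SE 0.45, adjusted p 0.434).

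**Figure D3:**
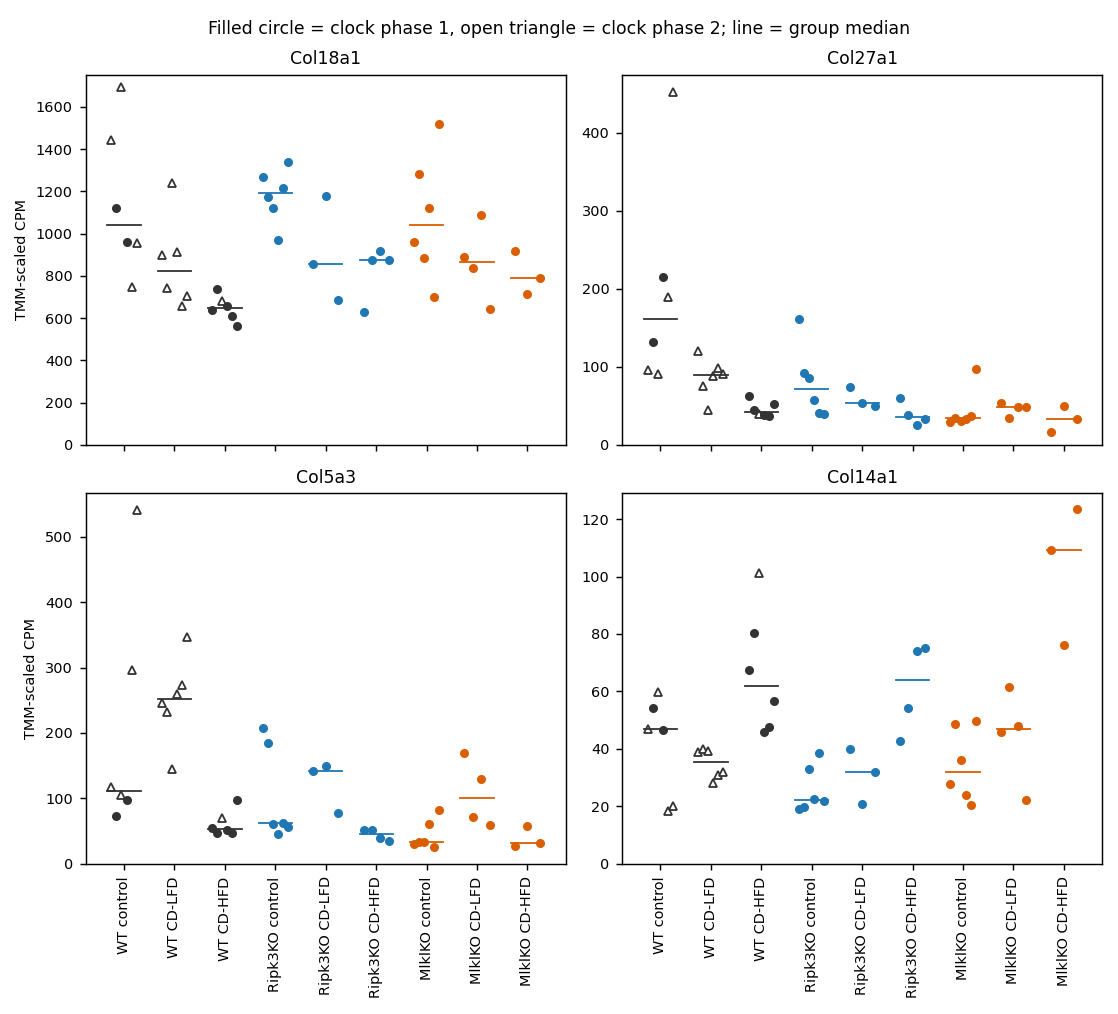
Levels (CPM, linear axis) of Col18a1, Col27a1, Col5a3 and Col14a1 in each library of the 9 groups, with filled circles for clock phase 1 and open triangles for clock phase 2. Col27a1 in WT control replicate 6 was at 453 CPM against a group median of 161.

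The 4 expressed members outside the test were low, at up to 2.33 CPM in any library. Without the count filter Col8a2, which pairs with Col8a1, was higher on CD-HFD than in WT controls (log2 change 2.64, edgeR adjusted p 0.0226), at 0 to 0.489 CPM (median 0) in controls and 0.0806 to 1.31 CPM (median 0.787) on CD-HFD. Col6a5 did not pass in WT (0.72, adjusted p 0.567) but did on CD-HFD against control in Ripk3KO (3.66, adjusted p 0.0129) and MlklKO (3.52, adjusted p 0.0313). Its WT values were 0 to 1.02 CPM (median 0.0690) in controls and 0.135 to 1.31 CPM (median 0.485) on CD-HFD, and its Ripk3KO and MlklKO controls reached at most 0.209 and 0.217 CPM, which is 1 count. Col23a1 and Col24a1 passed in none of the 19 comparisons without the filter.

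In some groups 1 library was the highest or lowest for most of the 20 members that rose in WT. WT CD-HFD replicate 3 was the highest of its group for 18 of the 20 members that rose and replicate 5 the lowest for 13. WT CD-LFD replicate 5 was the highest for 13 of the 20, Ripk3KO CD-LFD replicate 3 for 15 and MlklKO CD-HFD replicate 4 for 16. Ripk3KO CD-LFD replicate 2 was the lowest for 17, MlklKO CD-HFD replicate 1 for 16 and MlklKO CD-LFD replicate 4 for 13. In the 3 control groups and in Ripk3KO CD-HFD no library was the highest or the lowest for more than 9 of the 20. Cell type markers were compared in WT on CD-HFD against control, where 23.5% of all genes were higher and 24.1% lower. The myofibroblast and portal fibroblast list was higher for 6 of 7 tested genes on CD-HFD in WT, with summed levels of 7.07 to 20.3 CPM (median 11.7) in controls and 27.5 to 123 CPM (median 65.9). The cholangiocyte list was higher for 9 of 9, at 62.8 to 118 CPM (median 79.1) and 722 to 1187 CPM (median 923), and the macrophage list for 5 of 8 with 1 lower, at 147 to 207 CPM (median 176) and 528 to 1112 CPM (median 629). The stellate cell list split into 5 higher and 2 lower of 10 with overlapping sums of 290.1 to 377 CPM (median 297) and 264 to 355 CPM (median 318). The endothelial list had 1 higher and 7 lower of 10, at 211 to 260.5 CPM (median 233) and 134 to 228 CPM (median 174). Mesothelial markers were higher for 2 of 3, at 1.38 to 11.7 CPM (median 2.29) and 4.51 to 12.4 CPM (median 5.76), and adipocyte markers split into 1 higher and 1 lower of 2, with Adipoq at 0 in all libraries of both groups. Exocrine pancreas markers had no tested gene and summed to at most 3.75 CPM in any library. The part of these cell types in the collagen results was not tested.

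On CD-LFD, 10 of 29 members were higher and 4 lower in WT than on control diet, against 13.7% and 14.0% of all genes. The median log2 change was 0.38 for the members and -0.03 for all genes. The groups did not overlap for 6 members that were higher and 3 lower, against 5.04% and 2.58% of all genes. The fibrillar genes Col1a1 (6.38-fold, log2 change 2.67, SE 0.34, adjusted p 1.04e-07), Col1a2 (2.16 on the log2 scale), Col3a1 (1.57) and Col5a2 (1.38) rose, as did Col6a3 (2.11), Col12a1 (1.37) and Col16a1 (0.72). The type IV chains Col4a5 (1.73, adjusted p 0.00455) and Col4a6 (1.88, adjusted p 0.0444) and the short-chain Col8a1 (1.81, adjusted p 0.0334) were called too, but Col4a1 (0.62, adjusted p 0.0646) and Col4a2 (0.33, adjusted p 0.304) were not. Those that fell were Col6a6 (-1.76), Col13a1 (-1.13), Col20a1 (-1.15) and Col27a1 (-1.18). Fitting only the compared groups left 9 members called of the 21 then tested and comparing within clock phase 2 left 7 of 23, against 15.1% and 10.4% of all genes called. With library size only the split was 15 higher and 3 lower, against 27.9% and 4.96% of all genes. The calls of Col4a6, Col8a1, Col20a1 and Col6a6 were each lost when 1 of several libraries was left out, and that of Col27a1 without control replicate 6 (adjusted p up to 0.0627). Genes of the cell type lists called higher and lower on CD-LFD in WT were, in that order, 6 and 0 of 9 for cholangiocytes, 4 and 0 of 7 for myofibroblasts and portal fibroblasts, 3 and 0 of 8 for macrophages, 3 and 2 of 10 for stellate cells, 1 and 0 of 3 for mesothelium, 0 and 6 of 10 for endothelium and 0 and 4 of 8 for hepatocytes. Their summed levels on control diet and CD-LFD were 62.8 to 118 CPM (median 79.1) and 156 to 398 CPM (median 251) for cholangiocytes, 7.07 to 20.3 CPM (median 11.7) and 20.2 to 62.3 CPM (median 31.3) for myofibroblasts and portal fibroblasts and 91769 to 156527 CPM (median 128355) and 64206 to 109511 CPM (median 89252) for hepatocytes, and their part in the collagen changes was not tested.

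The 2 choline-deficient diets also differed from each other in WT. On CD-HFD 19 members were higher and 2 lower than on CD-LFD, against 13.7% and 7.4% of all genes. Col1a1 (log2 change 2.0, SE 0.30, adjusted p 4.09e-06), Col4a4 (2.02 on the log2 scale), Col4a6 (1.98), Col3a1 (1.71), Col5a2 (1.66), Col8a1 (1.64) and Col1a2 (1.63) had the largest rises. Col4a1 (log2 change 1.35, SE 0.25, adjusted p 8.59e-05) and Col4a2 (1.38), not called on CD-LFD against control, were separate between the 2 diets. Col5a3 (log2 change -2.03, SE 0.40, adjusted p 0.000199) and Col27a1 (-0.92, adjusted p 0.0469) were lower, and Col27a1 was no longer called when any 1 of 10 of the 12 libraries was left out, with adjusted p up to 0.115. Col12a1 did not pass the test (log2 change -0.26, SE 0.29, adjusted p 0.594). With clock phase as a term, 19 were higher and 0 lower, against 11.1% and 4.04% of all genes. All CD-LFD libraries are of phase 2 and 5 of the 6 CD-HFD libraries of phase 1. Between these diets 4 of 7 myofibroblast and portal fibroblast genes were higher and 0 lower. Stellate cell genes had 4 higher and 1 lower of 10, and hepatocyte genes 0 higher and 3 lower of 8. Summed cholangiocyte levels were 156 to 398 CPM (median 251) on CD-LFD and 722 to 1187 CPM (median 923) on CD-HFD. The part of these cell types was not tested.

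In Ripk3KO livers 20 members were higher and 5 lower on CD-HFD than on control diet, against 24.6% and 21.7% of all genes. Values are given for control diet, CD-LFD and CD-HFD in that order, with the log2 change from control to CD-HFD in parentheses, and where no p is printed beside it the change was called. Col1a1 was at 3.14 to 8.38 CPM (median 6.83) on control diet, 22.3, 63.1 and 75.5 CPM on CD-LFD and 166, 181, 196 and 200.4 CPM on CD-HFD (30.2-fold, log2 change 4.92, SE 0.37, adjusted p 5.52e-14). Col1a2 was at 4.25 to 14.5 CPM (median 8.49), 26.3, 56.2 and 91.9 CPM and 163, 171, 183 and 188 CPM (4.28). Col3a1 was at 9.64 to 25.8 CPM (median 14.5), 33.7, 63.1 and 138 CPM and 219, 267, 269 and 282 CPM (3.94). For these type I and III chains the 3 diets did not overlap. Col5a2 was at 1.20 to 3.35 CPM (median 1.89), 2.53, 6.46 and 8.08 CPM and 19.3, 19.6, 25.8 and 28.2 CPM (3.49). Col5a1 was at 4.88 to 13.0 CPM (median 7.28), 9.06, 12.5 and 17.7 CPM and 20.8, 24.0, 25.7 and 27.0 CPM (1.52). For Col5a2 and Col5a1 every CD-HFD library was above every other, and CD-LFD overlapped with control. Col4a1 was at 17.4 to 54.1 CPM (median 36.2), 31.6, 60.8 and 82.3 CPM and 104, 119, 133 and 153 CPM (1.84). Col4a2 was at 11.5 to 34.2 CPM (median 19.4), 22.1, 30.3 and 32.5 CPM and 46.9, 49.9, 68.2 and 69.8 CPM (1.47). The common type IV pair was likewise higher on CD-HFD than in any library of the other diets. Col4a6 was at 0 to 0.583 CPM (median 0.0815), 0.211, 1.04 and 1.89 CPM and 2.62, 3.07, 4.27 and 5.49 CPM (4.11). This was at least 5.35-fold higher on CD-HFD against a floor of 3 counts in the smallest control library. Col8a1 was at 0 to 0.722 CPM (median 0.357), 0.632, 0.833 and 1.36 CPM and 2.30, 3.76, 4.16 and 4.78 CPM (3.46). On the same floor Col8a1 was at least 5.20-fold higher.

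Of the 4 tested type VI chains, 3 also rose on CD-HFD in Ripk3KO, and Col6a6 (-0.24, adjusted p 0.776) did not pass the test. Col6a1 was at 3.37 to 10.9 CPM (median 6.03) on control diet, 11.2, 12.3 and 23.7 CPM on CD-LFD and 28.1, 28.2, 29.8 and 34.4 CPM on CD-HFD (2.16). Col6a2 was at 1.93 to 5.59 CPM (median 3.54), 3.79, 8.75 and 22.2 CPM and 17.4, 19.2, 25.0 and 29.5 CPM (2.58). Col6a3 was at 3.15 to 16.9 CPM (median 9.85), 23.4, 47.3 and 72.6 CPM and 67.2, 70.3, 91.1 and 92.4 CPM (3.0). CD-HFD was separate from control for Col6a1, Col6a2 and Col6a3. Col14a1 was at 19.0 to 38.6 CPM (median 22.1), 20.7, 32.1 and 39.8 CPM and 42.6, 54.2, 74.0 and 75.1 CPM (1.25). Col16a1 was at 2.65 to 4.24 CPM (median 3.19), 4.43, 6.87 and 7.48 CPM and 10.6, 12.0, 13.4 and 13.7 CPM (1.88). Col15a1 was at 5.25 to 17.3 CPM (median 8.44), 4.22, 11.8 and 12.3 CPM and 18.9, 24.1, 25.4 and 37.2 CPM (1.51). These 2 FACITs and the multiplexin were above every control on CD-HFD. Col12a1 was at 0.583 to 4.33 CPM (median 2.37), 2.74, 4.58 and 6.72 CPM and 3.66, 3.84, 4.69 and 5.68 CPM (0.97, adjusted p 0.0233). Col12a1 overlapped between control and CD-HFD, and was not called without control replicate 1, control replicate 4 or CD-HFD replicate 3 (adjusted p up to 0.0828). Col18a1 was at 971 to 1340.3 CPM (median 1194), 684, 854 and 1178 CPM and 630.0, 873, 875 and 919 CPM (log2 change -0.52, SE 0.20, adjusted p 0.0347). Col27a1 was at 39.0 to 161 CPM (median 71.5), 50.3, 54.0 and 73.7 CPM and 25.0, 33.2, 37.9 and 60.3 CPM (-1.03, adjusted p 0.0283). Col5a3 was at 45.1 to 207 CPM (median 61.6), 77.4, 141 and 149 CPM and 34.8, 39.3, 51.9 and 52.0 CPM (-1.21, adjusted p 0.0271). All 4 CD-HFD libraries were below every control for Col18a1, and overlapped with the controls for Col27a1 and Col5a3. Col25a1 was at 0.209 to 2.37 CPM (median 1.59), 0, 0.302 and 0.833 CPM and 0.110, 0.333, 0.427 and 0.787 CPM (-1.82, adjusted p 0.00853). Col20a1 was at 1.93 to 4.28 CPM (median 2.80), 0.625, 0.843 and 0.907 CPM and 0.939, 1.5, 1.57 and 2.30 CPM (-0.85, adjusted p 0.119). Col20a1 was therefore not called on CD-HFD, and the fifth member to fall was Col13a1 (-1.26). With library size only 20 members were higher and 0 lower, against 46.2% and 4.96% of all genes, and with RLE size factors 20 were higher and 3 lower, against 26.4% and 17.4%. Col18a1 was at 0.00758 (adjusted p 0.978) with library size only and at -0.49 (adjusted p 0.0573) without the doubtful control replicate 5. The falls of Col18a1, Col27a1 and Col5a3 were also lost when 1 of 4 or 5 libraries was left out, with adjusted p up to 0.142, 0.125 and 0.101.

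On CD-LFD 12 members were higher and 2 lower in Ripk3KO, against 14.0% and 10.1% of all genes. Col1a1 (log2 change 3.13, SE 0.38, adjusted p 5.45e-08), Col1a2 (2.70 on the log2 scale), Col6a3 (2.26) and Col3a1 (2.22) were separate from control, and Col20a1 (-1.78) and Col25a1 (-2.08) fell. The count rests on replicate 3, the highest CD-LFD library: without it 5 members were higher and 0 lower, against 5.9% and 3.22% of all genes. With library size only it was 15 higher and 0 lower, against 26.3% and 3.45% of all genes. Fitting only the compared groups left 9 called of the 23 then tested, against 18.5% of all genes. Between the diets 10 members were higher on CD-HFD than on CD-LFD and 1 lower, against 5.75% and 3.08% of all genes. Without CD-LFD replicate 2 or CD-HFD replicate 5 the count fell to 2 and 7, against 3.32% and 5.23% of all genes. Within clock phase 1, which holds all libraries of both groups, 15 were higher and 2 lower, with no share of all genes given. Col5a2 led this comparison (log2 change 1.97, SE 0.37, adjusted p 0.000427), and the lower one was Col11a2 (-2.06, adjusted p 0.01).

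In MlklKO livers 18 members were higher and 2 lower on CD-HFD than on control diet, against 24.9% and 20.3% of all genes. Col1a1 was at 5.82 to 20.9 CPM (median 10.8) on control diet, 25.9, 48.9, 52.6 and 65.1 CPM on CD-LFD and 176, 275 and 291 CPM on CD-HFD (19.7-fold, log2 change 4.30, SE 0.37, adjusted p 1.02e-12). Col1a2 was at 8.83 to 15.3 CPM (median 11.7), 33.8, 42.0, 61.4 and 70.2 CPM and 159, 211 and 242 CPM (4.09). Col3a1 was at 13.1 to 34.3 CPM (median 20.5), 55.5, 68.6, 69.6 and 114 CPM and 289, 355 and 489 CPM (4.06). As in the other genotypes the 3 diets were stepped without overlap for these chains. Col5a2 was at 1.79 to 5.43 CPM (median 3.21), 3.43, 5.93, 7.55 and 7.90 CPM and 30.3, 33.3 and 52.6 CPM (3.56). Col5a1 was at 7.11 to 13.5 CPM (median 10.1), 9.08, 14.8, 15.7 and 15.9 CPM and 30.8, 31.6 and 46.2 CPM (1.82). CD-HFD stood clear of both other diets for Col5a2 and Col5a1. Col6a1 was at 4.52 to 11.6 CPM (median 7.65), 10.1, 17.2, 18.9 and 21.0 CPM and 25.6, 41.4 and 52.2 CPM (2.31). Col6a2 was at 2.48 to 6.52 CPM (median 4.06), 3.57, 9.67, 9.98 and 10.6 CPM and 20.7, 29.4 and 38.8 CPM (2.78). Col6a3 was at 9.04 to 23.9 CPM (median 12.8), 34.3, 35.1, 44.4 and 51.3 CPM and 99.8, 115 and 160.2 CPM (3.04). Col6a1, Col6a2 and Col6a3 were separate between control and CD-HFD, while Col6a6 overlapped (0.09, adjusted p 0.922), and CD-LFD replicate 4 was the lowest of its group for Col6a2. Col4a6 was at 0 to 0.414 CPM (median 0.183), 0.160, 0.254, 0.894 and 1.49 CPM and 3.66, 4.53 and 4.57 CPM (4.44). This was at least 6.52-fold higher on CD-HFD against the floor of 3 counts. Col8a1 was at 0.149 to 0.754 CPM (median 0.493), 0, 0.678, 0.745 and 1.64 CPM and 3.39, 7.31 and 7.33 CPM (3.64). Both of these low genes were separate between control and CD-HFD. Replicate 1 was the lowest CD-HFD library for 16 of the 20 members that rose in WT, and replicate 4 the highest for 16.

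Col14a1 in MlklKO was at 20.4 to 49.7 CPM (median 31.9) on control diet, 22.0, 45.8, 48.1 and 61.7 CPM on CD-LFD and 76.1, 109 and 124 CPM on CD-HFD (1.58). Col15a1 was at 4.74 to 10.7 CPM (median 8.77), 5.51, 5.96, 6.74 and 6.78 CPM and 33.9, 34.1 and 45.7 CPM (2.22). Col16a1 was at 2.80 to 5.52 CPM (median 3.20), 5.36, 6.09, 8.05 and 8.56 CPM and 13.2, 15.5 and 18.3 CPM (2.07). These 3 were above every control on CD-HFD, and the CD-LFD libraries of Col15a1 lay within the control range. Col18a1 was at 697 to 1519 CPM (median 1041), 644, 839, 889.5 and 1089.7 CPM and 714, 788 and 918 CPM (log2 change -0.42, SE 0.22, adjusted p 0.127). The main multiplexin thus did not pass the test on CD-HFD in MlklKO. Col25a1 was at 1.64 to 4.02 CPM (median 2.84), 0.149, 0.339, 0.481 and 1.64 CPM and 0.133, 0.652 and 0.696 CPM (-2.49, adjusted p 0.00152). Col20a1 was at 1.79 to 4.96 CPM (median 3.85), 0.339, 0.894, 1.49 and 1.92 CPM and 0.522, 1.07 and 2.09 CPM (-1.54, adjusted p 0.014). These were the 2 that fell, and without CD-HFD replicate 1 or 4 Col20a1 was not called, with adjusted p up to 0.0859. On CD-LFD 10 members were higher and 3 lower than on control diet, against 19.7% and 18.3% of all genes. Among those higher were Col1a2 (2.12 on the log2 scale), Col1a1 (1.94), Col3a1 (1.76) and Col6a3 (1.44), and those lower were Col25a1 (-2.12), Col20a1 (-1.73) and Col4a1 (-1.06). Between the diets 19 members were higher on CD-HFD and 1, Col5a3 (-1.45), lower, against 14.6% and 9.14% of all genes.

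Cell type markers changed with the diets in the knockouts too, and counts are given here for Ripk3KO on CD-HFD and CD-LFD and then MlklKO on CD-HFD and CD-LFD, each against its own controls. Of all genes 24.6%, 14.0%, 24.9% and 19.7% were higher and 21.7%, 10.1%, 20.3% and 18.3% lower in these comparisons. Cholangiocyte genes were higher for 9, 9, 9 and 1 of 9, with 0 lower in each, and myofibroblast and portal fibroblast genes for 6, 5, 6 and 3 of 7, also with 0 lower. Macrophage genes were higher for 5, 3, 6 and 4 of 8 and mesothelial genes for 2, 1, 2 and 2 of 3, with 0 lower in each. Stellate cell genes were higher for 5, 3, 5 and 2 of 10 and lower for 2, 2, 2 and 0 of 10. Endothelial genes were higher for 0, 1, 1 and 0 of 10 and lower for 5, 4, 1 and 6 of 10, and hepatocyte genes higher for 0, 0, 0 and 1 of 8 and lower for 7, 1, 4 and 2 of 8. In Ripk3KO the summed cholangiocyte level was 58.3 to 117 CPM (median 68.2) on control diet and 672 to 1246 CPM (median 789) on CD-HFD, and in MlklKO 93.2 to 161 CPM (median 109) and 766 to 1112 CPM (median 972). The summed myofibroblast and portal fibroblast level was 8.82 to 12.8 CPM (median 9.95) and 54.0 to 73.8 CPM (median 59.4) in Ripk3KO and 10.2 to 15.3 CPM (median 11.6) and 39.9 to 113 CPM (median 82.2) in MlklKO. The summed hepatocyte level was 114428 to 153097 CPM (median 128589) and 63056 to 90016 CPM (median 79344) in Ripk3KO and 115725 to 127929 CPM (median 124185) and 68324 to 90952 CPM (median 77438) in MlklKO. In both knockouts the CD-HFD sums of cholangiocyte and fibroblast genes lay above, and those of hepatocyte genes below, every control of the same genotype, and their part in the collagen changes was not tested.

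Across genotypes, 18 members were called higher on CD-HFD against the control diet of their own genotype in all 3, and 1, Col25a1, lower in all 3, against 17.9% and 10.6% of all genes. Those outside the shared 18 were Col4a1 and Col12a1, called in WT and Ripk3KO but not in MlklKO. On CD-LFD 6 were called higher in all 3 genotypes: Col1a1, Col1a2, Col3a1, Col5a2, Col6a3 and Col16a1. Col20a1 was called lower in all 3. Of all genes 6.84% were called higher and 3.8% lower in all 3 on CD-LFD.

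**Figure D4:**
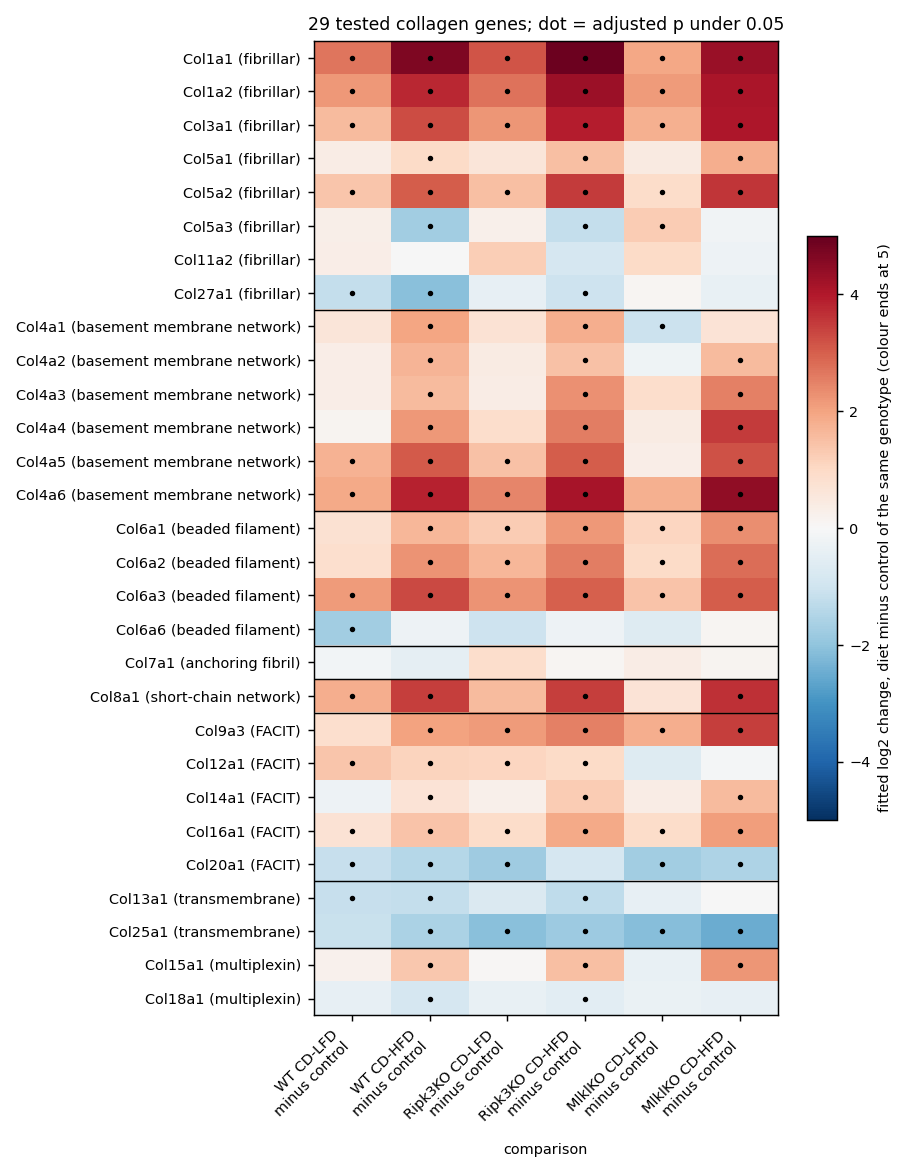
Fitted log2 change of the 29 tested members (rows, grouped by class) in 6 comparisons of a choline-deficient diet with the control diet of the same genotype (columns), where colour is the change (scale ends at 5) and a dot marks an adjusted p under 0.05. Col1a1 has the largest rise on CD-HFD in WT and Ripk3KO (4.67 and 4.92), and Col4a6 in MlklKO (4.44 against 4.30 for Col1a1).

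Knockout and WT livers were then compared within each diet, which asks whether loss of Ripk3 or Mlkl changed the collagen genes. On CD-HFD no member was called in Ripk3KO against WT (0 of 29, against 0.377% of all genes) or in MlklKO against WT (0 of 29, against 0.0%), and DESeq2 called 0 members in both. At an unadjusted p under 0.05 there were 1 and 4 members, and the lowest adjusted p was 0.496 and 0.568. Col1a1 differed by -0.15 (SE 0.33) in Ripk3KO and by 0.26 (SE 0.35) in MlklKO on the log2 scale, Col3a1 by -0.11 (SE 0.30) and 0.43 (SE 0.32). The widest gap in MlklKO was Col5a2 (log2 change 0.83, SE 0.30, adjusted p 0.568). On CD-LFD no member was called in Ripk3KO (0 of 29, against 1.1% of all genes) or MlklKO (0 of 29, against 2.56%), and DESeq2 called 0 in both. At an unadjusted p under 0.05 there were 2 and 5, with lowest adjusted p of 0.358 and 0.147. The groups did not overlap for Col12a1 and Col15a1 in MlklKO against WT on CD-LFD, both lower, with adjusted p of 0.272 and 0.219; 3.1% of all genes were lower without overlap. Fitting only the compared groups called 2 of 22 members lower in MlklKO on CD-LFD, Col5a3 (-1.24, adjusted p 0.0304) and Col27a1 (-0.91, adjusted p 0.0391), against 1.93% of all genes. A p that misses the threshold does not show equal levels, and there were only 3 or 4 knockout libraries on these diets.

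On control diet, 1 member was lower in Ripk3KO than in WT and 0 higher, against 2.23% and 2.25% of all genes. It was Col27a1, at 39.0 to 161 CPM (median 71.5) in Ripk3KO and 90.4 to 453 CPM (median 161) in WT (log2 change -1.30, SE 0.34, adjusted p 0.0191). The ranges overlapped, and the call was lost without WT control replicates 5 and 6 (-0.74, adjusted p 0.263), with clock phase as a term (-1.25, adjusted p 0.179) and when WT control replicate 6 or Ripk3KO control replicate 4, 5 or 6 was left out alone. Col16a1 was just outside the threshold (log2 change -0.76, SE 0.23, adjusted p 0.0503) and passed it with DESeq2 (-0.79, adjusted p 0.0414). Other members were called lower in single settings: Col14a1 without WT control replicates 5 and 6 (-1.01, adjusted p 0.0248) and Col5a3 without Ripk3KO control replicate 1 (-1.32, adjusted p 0.0396).

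MlklKO controls differed from WT controls in 6 members, 3 higher and 3 lower, against 13.0% and 14.1% of all genes. Col4a1 was at 48.6 to 135 CPM (median 127) in MlklKO controls and 19.6 to 49.2 CPM (median 27.6) in WT controls, 3.57-fold higher (log2 change 1.84, SE 0.26, adjusted p 1.85e-06). MlklKO replicate 6 was the lowest and lay just inside the WT range. On CD-LFD Col4a1 was back at 44.9, 53.0, 55.5 and 57.7 CPM in MlklKO and on CD-HFD at 153, 163 and 216 CPM, so that MlklKO was lower on CD-LFD than on control diet (log2 change -1.06, SE 0.28, adjusted p 0.00354), where WT had 0.62. That difference between the genotypes' CD-LFD changes was called (log2 change -1.68, SE 0.38, adjusted p 0.00454), and the corresponding one for CD-HFD was not (-1.27, adjusted p 0.0583). In MlklKO the CD-HFD rise of Col4a1 itself missed the threshold (log2 change 0.69, SE 0.29, adjusted p 0.052), although the groups did not overlap. Per kilobase Col4a1 was 2nd among the collagens of MlklKO controls, at 14.8 ± 4.52 CPM per kb, after Col18a1 at 153 ± 41.9.

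Col4a2 was at 26.1 to 48.0 CPM (median 35.0) in MlklKO controls, 18.6, 32.7, 34.6 and 35.5 CPM on CD-LFD and 81.8, 92.4 and 136 CPM on CD-HFD. Against WT controls it was higher by less than Col4a1 (log2 change 0.71, SE 0.24, adjusted p 0.0227), and not called without WT control replicates 5 and 6 (0.54, adjusted p 0.143). Leaving out WT control replicate 5, WT control replicate 6 or MlklKO control replicate 2 alone also ended that call, and within clock phase 1 only Col4a1 and Col27a1 of the 6 were called. Col12a1 was at 2.54 to 11.6 CPM (median 4.88), 2.88, 3.57, 4.02 and 4.49 CPM and 4.0, 4.96 and 7.20 CPM on the same diets, with replicate 1 its highest MlklKO control (log2 change 1.25, SE 0.34, adjusted p 0.00587 against WT control). Its CD-LFD change differed between MlklKO (-0.63) and WT (1.37), as the test of the difference showed (log2 change -2.0, SE 0.49, adjusted p 0.00783). These 2 were all the members called in that interaction, 0 higher and 2 lower against 4.37% and 4.08% of all genes. Both calls in that interaction were kept in every setting run, leave-one-out included. Within a clock phase it could not be fitted, because WT CD-LFD was all of phase 2 and MlklKO all of phase 1.

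**Figure D5:**
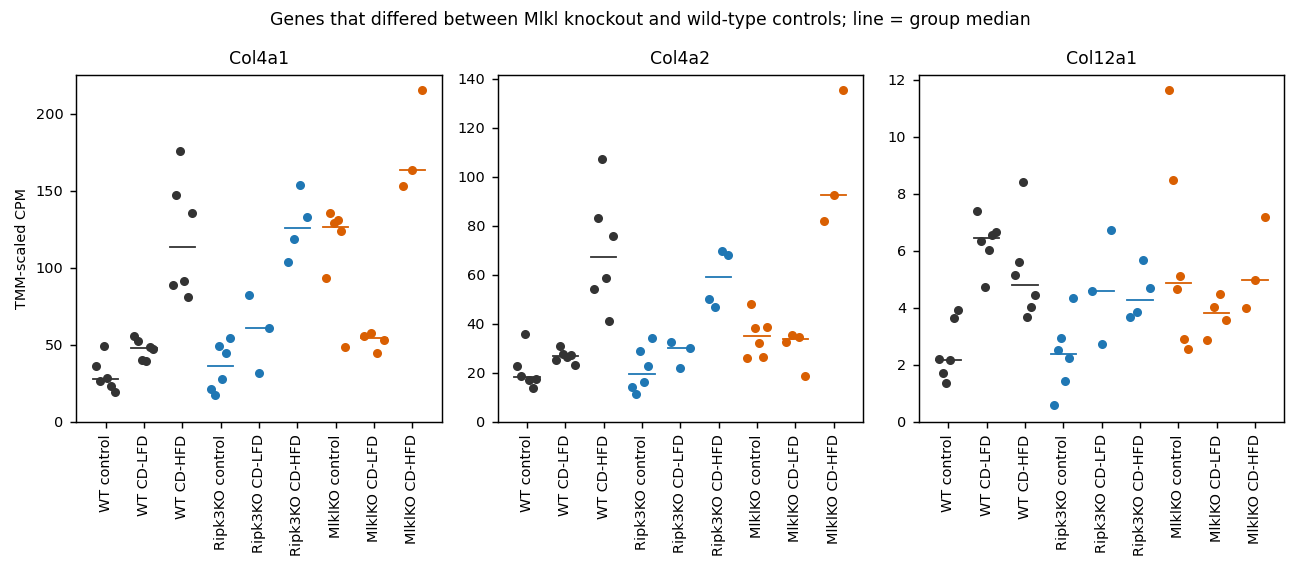
Levels (CPM) of Col4a1, Col4a2 and Col12a1 in each library of the 9 groups, where a point is a library and a line the group median. The Col4a1 median was 127 CPM in MlklKO controls, against 27.6 in WT controls and 36.2 in Ripk3KO controls.

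The members lower in MlklKO controls than in WT controls were Col5a3, Col27a1 and Col16a1. Col5a3 was at 26.1 to 82.5 CPM (median 33.3) in MlklKO controls, 59.0, 71.7, 129 and 169 CPM on CD-LFD and 27.9, 32.4 and 57.4 CPM on CD-HFD (log2 change -2.20, SE 0.41, adjusted p 0.000105 against WT control), and not called with clock phase as a term (-1.29, adjusted p 0.0709) or within phase 1 (-0.91, adjusted p 0.208). Col27a1 was at 29.1 to 97.2 CPM (median 34.3), 34.9, 48.3, 48.4 and 54.0 CPM and 17.1, 33.3 and 50.0 CPM (log2 change -2.16, SE 0.35, adjusted p 1.78e-05), and this call was kept in every setting. In both genes MlklKO control replicate 6 was the highest of its group and overlapped with WT. Col16a1 (log2 change -0.62, SE 0.23, adjusted p 0.0381) was lost in 5 of the 9 other settings, among them with clock phase as a term (-0.29, adjusted p 0.518), and without any of 8 libraries. The remaining interactions called no member: Ripk3KO on CD-LFD 0 of 29 (all genes 0.0269%, 0 at an unadjusted p under 0.05), Ripk3KO on CD-HFD 0 (all genes 0.478%, 1 unadjusted) and MlklKO on CD-HFD 0 (all genes 4.12%, 7 unadjusted). DESeq2 called 0, 0 and 2 members in these, against 0.202%, 1.37% and 6.4% of all genes. The 2 were Col27a1 (1.75, adjusted p 0.0314) and Col4a1 (-1.28, adjusted p 0.0286), which with edgeR were at 1.71 (adjusted p 0.0546) and -1.27 (adjusted p 0.0583). With the replicate block Col27a1 was called in this interaction (1.75, adjusted p 0.0346), beside 4.54% of all genes. Cell type marker lists in MlklKO against WT controls, where 13.0% of all genes were higher and 14.1% lower, had 2 higher and 1 lower of 9 cholangiocyte genes and of 10 endothelial genes, 1 higher and 0 lower of 10 stellate genes and 0 of 7 myofibroblast genes called. Their summed levels in MlklKO controls were 93.2 to 161 CPM (median 109) for cholangiocyte, 185 to 259.5 CPM (median 225) for endothelial and 198 to 342 CPM (median 269) for stellate cell markers, and their part in the result was not tested.

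The balance between chains is described for 4 count ratios chosen after values had been seen, so no test is given. The ratio of Col3a1 to Col1a1 was 2.68 to 9.17 (median 3.69) in WT controls, 1.56 to 1.84 (median 1.65) on CD-LFD and 1.20 to 1.68 (median 1.35) on CD-HFD, and 1.37 to 2.65 (median 1.94) in MlklKO controls. WT controls did not overlap with either diet or with MlklKO controls. In MlklKO the diets overlapped with control, at 1.32 to 2.14 (median 1.58) on CD-LFD and 1.29 to 1.68 (median 1.64) on CD-HFD. In Ripk3KO the ratio was 1.82 to 3.96 (median 2.93) on control diet, 1.0 to 1.83 (median 1.51) on CD-LFD, with a slight overlap, and 1.32 to 1.49 (median 1.39) on CD-HFD, without one. The ratio of Col5a1 to Col5a2 was 2.0 to 37.0 (median 4.75) in WT controls and 0.956 to 1.31 (median 1.15) on CD-HFD, again without overlap. The highest control ratio was that of replicate 4 alone, where Col5a2 was at 0.307 CPM, and the next highest was 5.38. The ratio of Col4a1 to Col4a2 was 1.11 to 1.70 (median 1.49) in WT controls and 1.26 to 4.71 (median 3.48) in MlklKO controls, which overlapped. The ratio of Col1a1 to Col1a2 was 0.349 to 0.822 (median 0.584) in WT controls and 0.701 to 1.28 (median 1.14) on CD-HFD, with overlap.

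Genes that make, cross-link, bind and sense collagen were taken from 6 lists, chosen with earlier results of these data known. Over all genes 23.5% were called higher and 24.1% lower on CD-HFD in WT. Of 19 tested modification and folding genes 8 were higher and 5 lower on CD-HFD in WT. Among them were Crtap (1.61 on the log2 scale), the collagen chaperone Serpinh1 (2.75) and the prolyl 3-hydroxylase family gene P3h3 (1.89). Others were the peptidyl-prolyl isomerase Fkbp10 (2.46), the telopeptide lysyl hydroxylase Plod2 (2.57) and the ion channel Tmem38b (-0.64). Of 12 processing and cross-linking genes 9 were higher and 2 lower, with the cross-linking oxidases Lox (4.49), Loxl2 (2.47) and Loxl1 (2.37), the procollagen N-proteinase Adamts2 (2.37), the C-proteinase enhancer Pcolce (1.77) and the collagen-binding Sparc (1.91). Of 7 fibril-associated proteoglycans 5 were higher and 0 lower: Fmod (3.64), Lum (3.63), Bgn (1.88), Prelp (1.41) and Dcn (1.35). Their median log2 changes on CD-HFD were 0.12, 1.53 and 1.41, against -0.07 for all genes. On CD-LFD, where 13.7% of all genes were higher and 14.0% lower, these 3 lists had 4 higher and 3 lower, 7 and 1, and 3 and 0.

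Of 11 collagen receptors 8 were higher and 1 lower on CD-HFD in WT, with the integrin chains Itga2 (4.18 on the log2 scale) and Itga11 (2.97), the receptor kinase Ddr1 (3.68), the uptake receptor Mrc2 (3.26), Cd44 (3.01) and the inhibitory receptor Lair1 (2.71). Of 16 basement membrane partners of type IV 9 were higher and 2 lower; the laminin chains Lamc3 (2.93), Lama5 (2.19) and Lamb2 (1.98) rose, and Nid2 (-1.40) and Lama3 (-1.81) fell. Of 12 TGF-beta and PDGF ligands and receptors 10 were higher and 0 lower, with Tgfb3 (2.73), Pdgfb (2.70), Pdgfd (2.65), Tgfb2 (2.63), Pdgfra (2.33) and Pdgfrb (2.22). The medians of these 3 lists were 2.71, 0.89 and 1.78. On CD-LFD they had 5 higher and 1 lower, 3 and 1, and 5 and 0, against 13.7% and 14.0% of all genes. On CD-HFD in Ripk3KO the 6 lists had 7 higher and 6 lower, 8 and 1, 5 and 0, 8 and 0, 11 and 1, and 9 and 0 in the order given, against 24.6% and 21.7% of all genes. In MlklKO they had 7 and 4, 8 and 0, 6 and 0, 8 and 0, 12 and 1, and 8 and 0, against 24.9% and 20.3%. In MlklKO against WT controls 5 of 19 modification and folding genes were higher and 0 lower, against 13.0% and 14.1% of all genes: Serpinh1 (1.12), Ppib (0.74), P3h1 (0.73), Plod3 (0.67) and P4hb (0.53). There the laminin and nidogen partners Nid1 (1.06) and Lamc1 (0.72) were higher and Nid2 (-1.07), Agrn (-0.65) and Lamb3 (-0.61) lower, and 0 of 7 proteoglycans and 0 of 11 receptors were called. Of 12 processing and cross-linking genes 1 was higher and 2 lower, and of 12 TGF-beta and PDGF genes 3 were higher and 2 lower.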

How the data were processed

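Liver RNA of 44 libraries was measured by bulk RNA-seq. The authors deposited 1 table of raw counts per Ensembl gene, not normalized, and the submitters' processing notes name FastQC, STAR, HTSeq, edgeR, limma and GRCm39, with no versions. Symbols were found for 34373 of 35249 genes, and 876 had none.

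From the deposited counts, edgeR 4.0.16 in R 4.3.3 was run with a filter (filterByExpr, minimum count 10), TMM scaling, 1 mean per group over all libraries, the quasi-likelihood test and Benjamini-Hochberg adjustment over 14862 genes. Alternatives were DESeq2 1.42.0, RLE or library size scaling, no filter, a replicate block, clock phase as a term or within a phase, only the compared groups, leaving out doubtful libraries and leaving out each library. The scripts were tested on simulated data. Replicates of a group differed by more than sampling noise (chi-square per degree of freedom at least 6.95 over 93 pairs).

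The 21 members given in full were a fixed list of 13 with the 4 largest changes in each direction on CD-HFD in WT and the members called between genotypes. Members and lists were chosen with earlier results of these data known.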

Additional observations from a re-analysis of the deposited data

Results flagged for a closer look

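Of 147 combinations of a gene and a group of 4 or 6 libraries, 7 held a library that stood apart from the rest of its group by Dixon's criterion, where chance alone gives about 1 in 20. Low values were 18.6 CPM for Col4a2 and 3.57 CPM for Col6a2, both in MlklKO CD-LFD replicate 4, and 630.0 CPM for Col18a1 in Ripk3KO CD-HFD replicate 1. Col25a1 was at 0 CPM in WT CD-LFD replicate 2. High values were 7.42 CPM for Col4a6 in WT CD-HFD replicate 3, 453 CPM for Col27a1 in WT control replicate 6 and 97.2 CPM for Col27a1 in MlklKO control replicate 6.

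The change on CD-LFD differed between MlklKO and WT for 2 members by edgeR's test of the difference itself. It was -1.68 on the log2 scale for Col4a1 (adjusted p 0.00454), which was lower on CD-LFD than on control diet in MlklKO. It was -2.0 for Col12a1 (adjusted p 0.00783), which rose on CD-LFD in WT.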

How the results depend on the processing

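Of 173 calls of a member in a comparison, 114 were kept in every setting run, 59 were lost in at least 1 and 1 reversed. The reversed one was Col18a1 on CD-HFD against control in Ripk3KO, at 0.00758 with library size only, a scaling that moves the median change of all genes. The number of called members stayed within 1.5 times of the reported one in 18 of 19 comparisons with RLE, with library size only, without the filter and with the replicate block, in 17 with DESeq2 or clock phase as a term and in 14 with only the compared groups, where fewer members were tested. For the values that follow the cause was not tested.

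On CD-LFD against control, WT had 9 called with only the compared groups and 7 within clock phase 2, and Ripk3KO 9 with only the compared groups and 5 to 16 when each library was left out. Ripk3KO CD-HFD against CD-LFD had 17 within phase 1 and 2 to 14 over left-out libraries. All libraries of both groups were of phase 1, so that fit differed in leaving out the phase 2 libraries of other groups. The share of all genes called in it is not given. Ripk3KO against WT controls had 2 with RLE, 2 with library size only, 2 with DESeq2, 0 with clock phase as a term, 0 with only the compared groups, 0 within phase 1 and 0 to 2 over left-out libraries. The main fit called 2.25% of all genes higher and 2.23% lower there, and the shares in the other settings are not given. MlklKO against WT had 3 with only the compared groups and 2 within phase 1 on control diet, and 2 with only the compared groups on CD-LFD. The CD-HFD interaction of MlklKO had 2 without the filter, 2 with DESeq2, 1 with clock phase as a term, 1 without WT control replicates 5 and 6, 1 without the doubtful libraries and 0 to 2 over left-out libraries.

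Same-numbered libraries of different groups shared only a number, with a median correlation of -0.0114 over 146 pairs and 9 of 44 libraries correlating best with their own number. The replicate block changed the CD-HFD interaction of MlklKO to 1 call and no other count by over 1.5 times. Members under about 1 CPM rest on few counts, which limits the precision of their changes.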
